A study of Mus musculus with 6 samples.

Results

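The genes described here are 30 genes of glycolysis and of the response to hypoxia-inducible factor (HIF), measured in macrophages of malignant pleural effusions (MPEs) of mice. They were chosen by symbol, and all 30 were found among the 23302 genes of the deposited table. Macrophages were taken from 3 libraries of WT C57BL/6 mice and 3 libraries of IL-10-/- mice on the same background, 10 days after an intrapleural injection of MC38 tumor cells, which derive from a mouse colon adenocarcinoma. The mice of both groups were matched for sex and weight and were 6 to 8 weeks old, and every mouse carried the tumor. The mononuclear cells of the effusion were enriched with microbeads against F4/80, which marks mouse macrophages. According to the paper, flow cytometry showed that the large majority of the isolated cells were macrophages. The paper describes culture of the isolated cells in medium with serum for later use. Whether the sequenced cells were cultured before RNA extraction is not stated. WT and IL-10-/- mice came from different suppliers, so that supplier and genotype cannot be told apart, and whether each library was made from 1 mouse or from pooled mice is not stated in the labels. The p-values therefore measure the spread between these libraries, which may be technical.

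Glycolysis turns glucose into pyruvate and, through lactate dehydrogenase, into lactate, and inflammatory macrophages are known to rely on it. HIF-1, a dimer of HIF-1α and ARNT, binds DNA at a short core sequence and raises transcription of most glycolytic enzymes when oxygen is low or when macrophages are activated. In the presence of oxygen, prolyl hydroxylases of the EGLN family mark HIF-1α for degradation by the von Hippel-Lindau complex, and the EGLN3 gene is itself a HIF target in human and mouse cells.

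To show where ACGTG, a form of the HIF core, lies in these genes, RefSeq promoters of the build GRCm38.p6 were searched. The search covered both strands (ACGTG and its reverse complement CACGT) in the 250 bases before the transcription start. Of the 30 genes, 28 had a RefSeq promoter (Bnip3l and Ndrg1 had none), and 15 of the 28 (53.6%) held ACGTG, against 16.6% of all 32851 promoters of the same length. The other form of the core, GCGTG, was held by 14 of the 28, against 28.2% of all promoters. The 30 genes include genes listed as HIF targets, so these shares are a description and not a test. The palindrome CACGTG, which holds ACGTG on both strands and is also the E-box bound by other factors, counts as 2 matches. The windows of 6 genes are printed below, 5′ to 3′ on the strand of the gene and ending at the base before the start. Capitals mark ACGTG and CACGT only. Egln3, Pfkfb3, Slc2a1 and Hk3 are shown because they had the smallest p-values of the 30 between the groups, and Ldha and Pgk1 as textbook HIF targets, with log2 fold changes of −0.12 and −0.09.
Egln3, chr12:54203875-54204124, reverse strand: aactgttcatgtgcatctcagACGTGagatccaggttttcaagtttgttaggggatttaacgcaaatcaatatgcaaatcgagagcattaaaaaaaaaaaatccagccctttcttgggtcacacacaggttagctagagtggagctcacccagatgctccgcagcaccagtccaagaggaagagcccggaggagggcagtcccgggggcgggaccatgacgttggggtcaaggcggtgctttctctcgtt
Pfkfb3, chr2:11553930-11554179, reverse strand: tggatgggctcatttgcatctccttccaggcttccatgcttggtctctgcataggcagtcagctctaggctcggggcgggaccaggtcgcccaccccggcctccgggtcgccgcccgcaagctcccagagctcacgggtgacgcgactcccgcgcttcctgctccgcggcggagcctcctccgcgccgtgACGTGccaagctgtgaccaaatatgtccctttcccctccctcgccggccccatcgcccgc
Slc2a1, chr4:119108495-119108744, forward strand: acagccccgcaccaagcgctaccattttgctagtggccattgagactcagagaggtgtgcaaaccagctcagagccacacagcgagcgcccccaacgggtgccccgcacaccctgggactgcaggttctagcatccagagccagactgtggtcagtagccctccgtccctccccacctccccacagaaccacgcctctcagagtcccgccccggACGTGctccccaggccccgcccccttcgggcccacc
Hk3, chr13:55021386-55021635, reverse strand: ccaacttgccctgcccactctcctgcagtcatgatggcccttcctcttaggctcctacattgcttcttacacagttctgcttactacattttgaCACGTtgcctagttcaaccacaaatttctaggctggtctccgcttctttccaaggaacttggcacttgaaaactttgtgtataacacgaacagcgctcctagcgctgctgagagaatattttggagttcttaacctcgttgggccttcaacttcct
Ldha, chr7:46845554-46845803, forward strand: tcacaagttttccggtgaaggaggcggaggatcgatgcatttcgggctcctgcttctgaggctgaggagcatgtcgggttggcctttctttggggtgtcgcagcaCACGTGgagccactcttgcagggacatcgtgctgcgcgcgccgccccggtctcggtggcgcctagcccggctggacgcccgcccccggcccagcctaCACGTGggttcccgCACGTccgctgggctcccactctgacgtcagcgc
Pgk1, chrX:106186850-106187099, forward strand: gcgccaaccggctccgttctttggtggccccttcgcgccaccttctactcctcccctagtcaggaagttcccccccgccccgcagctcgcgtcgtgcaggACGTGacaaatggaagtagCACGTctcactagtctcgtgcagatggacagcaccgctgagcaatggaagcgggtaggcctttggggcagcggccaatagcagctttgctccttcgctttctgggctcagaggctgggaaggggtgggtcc
The match to ACGTG or CACGT began 229 bases before the start in Egln3, 60 in Pfkfb3, 36 in Slc2a1 and 156 in Hk3, and it occurred once in each of these windows. Ldha had 5 matches, 4 of which come from 2 palindromes CACGTG, and Pgk1 had 2 matches, 150 and 131 bases before the start. The Ldha window ends 4329 bases from the 5′ end of the deposited gene, which begins further upstream. A match is a description of these letters and not a binding site. The windows of Gapdh, Aldoa, Pkm and Tpi1 held no match to ACGTG or CACGT, although that of Gapdh held 2 matches to GCGTG. The window of Aldoa lies 8661 bases and that of Gapdh 694 bases from the 5′ end of the deposited gene.

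The study compared the groups to learn how IL-10 shapes these macrophages. Values are FPKM (fragments scaled to transcript length and to sequencing depth), differences are log2 fold changes of FPKM + 1 (IL-10-/- minus WT) from limma with its standard error (SE), and a gene is said to rise or fall only at a Benjamini-Hochberg adjusted p under 0.05 over the 11838 genes that reached 1 FPKM in 3 or more libraries. Il10 itself was at 6.43 to 33.3 FPKM in WT libraries and at 42.4 to 62.0 FPKM in IL-10-/- libraries (log2 fold change 2.09, adjusted p = 0.14 from limma), so that its transcript was not lost, and the 2 groups are called by their labels. A gene-level FPKM cannot show whether the transcript of a targeted allele is complete. The 6 libraries held 11602 to 11935 genes at 1 FPKM or more, and their FPKM sums ranged from 885310 to 1125020. Judged from the worth of 1 fragment in genes under 0.1 FPKM, the IL-10-/- libraries were sequenced 1.21 to 1.43 times as deeply as WT replicate 1 and the other WT libraries 0.986 to 1.25 times. All 10 macrophage markers were tested and 0 were called at an adjusted p under 0.05 from limma (2 higher and 1 lower at an unadjusted p under 0.05), with a median difference of 0.14 on the log2 scale. They summed to 7806 to 10166 FPKM in WT libraries and 11221 to 14196 FPKM in IL-10-/- libraries, and without Lyz2, the lysozyme gene, to 3400 to 4955 FPKM and 4241 to 4943 FPKM. Mrc1, which encodes the mannose receptor and was looked at after its values were seen, averaged 177 FPKM and 104 FPKM with no overlap (adjusted p = 0.14 from limma). The 18 neutrophil markers summed to 1240 to 1594 FPKM in WT libraries and 603 to 713 FPKM in the others, with 5 of 16 tested lower at an adjusted p under 0.05 from limma, and no neutrophil marker was at 0 in all libraries. The 8 platelet markers summed to 2595 to 3301 FPKM and 483 to 935 FPKM, with 2 of 2 tested lower in the same test. Nearly all of this sum came from these 2, Pf4 (on average 2563 FPKM in WT and 609 FPKM in IL-10-/- libraries) and Ppbp (400 and 33.1 FPKM). The other platelet markers were too low to be tested, at no more than 2.62 FPKM in any library. The 8 classical monocyte markers summed to 6827 to 8254 FPKM and 9679 to 14020 FPKM, with 1 of 8 higher. The 9 erythroid markers summed to 5698 to 12699 FPKM and 973 to 3791 FPKM, with 0 of 6 tested called (6 lower at an unadjusted p under 0.05). The 13 genes of dissociation stress summed to 4064 to 5030 FPKM and 2360 to 4262 FPKM, with 1 of 13 lower. In these bulk libraries fewer cells of a type and less RNA per cell cannot be told apart, and whether these other cells shape the values below was not tested. Epithelial markers, which MC38 cells could bring, summed to at most 20.6 FPKM in any library.

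None of the 30 genes rose or fell in IL-10-/- libraries. Of the 29 genes tested, 0 were called higher and 0 lower at an adjusted p under 0.05 from limma, where the share over all tested genes was 1.09% (0.608% higher and 0.482% lower). The lowest adjusted p of the 29 was 0.14 (limma), for Egln3. At an unadjusted p under 0.05 there were 4 of 29, namely Hk3 (higher) and Egln3, Pfkfb3 and Slc2a1 (lower), beside 10.8% of all tested genes (5.16% higher and 5.61% lower). No gene passed a fold change of 2 together with an unadjusted p under 0.05, beside 2.18% of all tested genes. The log2 fold change was above 0 in 8 genes and below 0 in 21, its median was −0.11 against −0.0025 over all tested genes, and 26 of the 29 lay within 0.5 on the log2 scale. The 95% confidence interval from limma stayed within a fold change of 2 in either direction for 26 of the 29 genes. The other 3, whose intervals reached past it on one side, were Egln3, Pfkfb3 and Hk3. The groups did not overlap for 1 gene that was higher (Hk3, beside 7.80% of all tested genes) and 5 that were lower (Egln3, Pfkfb3, Slc2a1, Aldoa and Pgam1, beside 7.59%). These counts were 0 and 2 with FPKM rescaled to an equal sum (beside 7.86% and 4.99% of all tested genes). They were 0 and 3 with quantile normalization (beside 8.23% and 7.14%). The whole set spans the range from Gapdh, which ranked 58 of 23302 by mean FPKM, to Adm, which was too low to be tested.

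**Figure D1:**
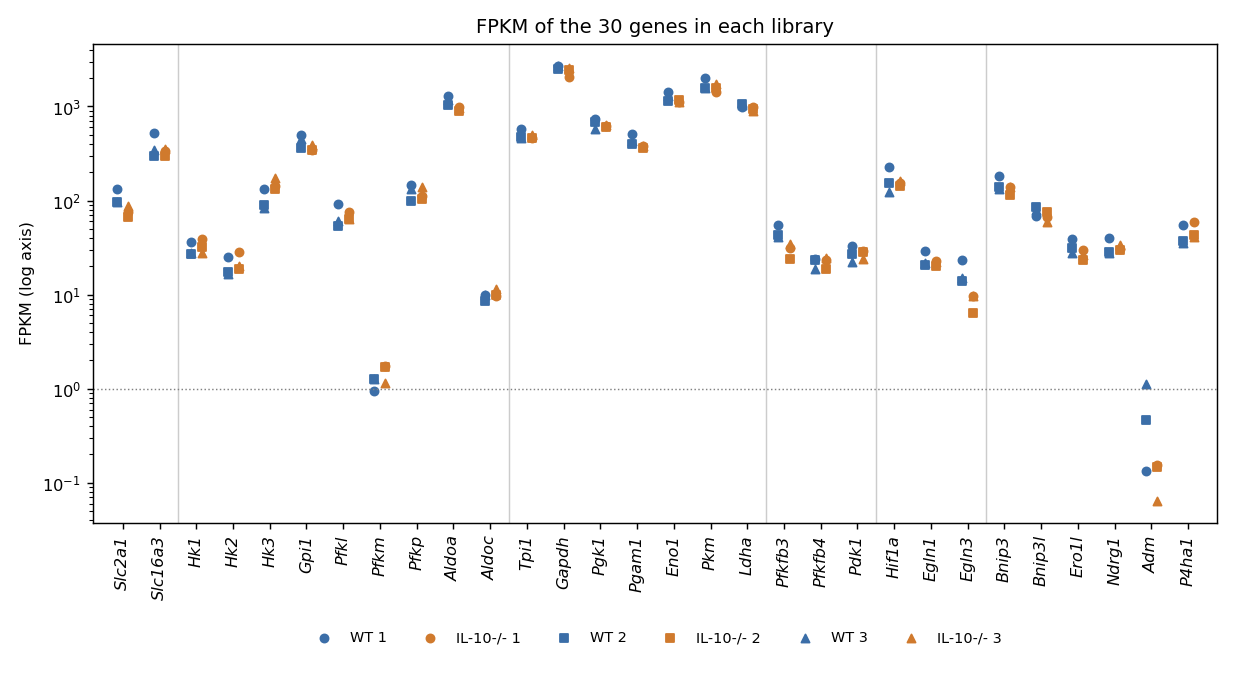
FPKM (log axis) of the 30 genes in each of the 6 libraries, blue for WT and orange for IL-10-/-, with symbols for the replicate number, grey lines between the role groups and a dotted line at 1 FPKM. Gapdh stood at 2049 to 2711 FPKM, Pfkm near the line and Adm mostly below it, and in most genes the orange and blue symbols lie close together.

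**Figure D2:**
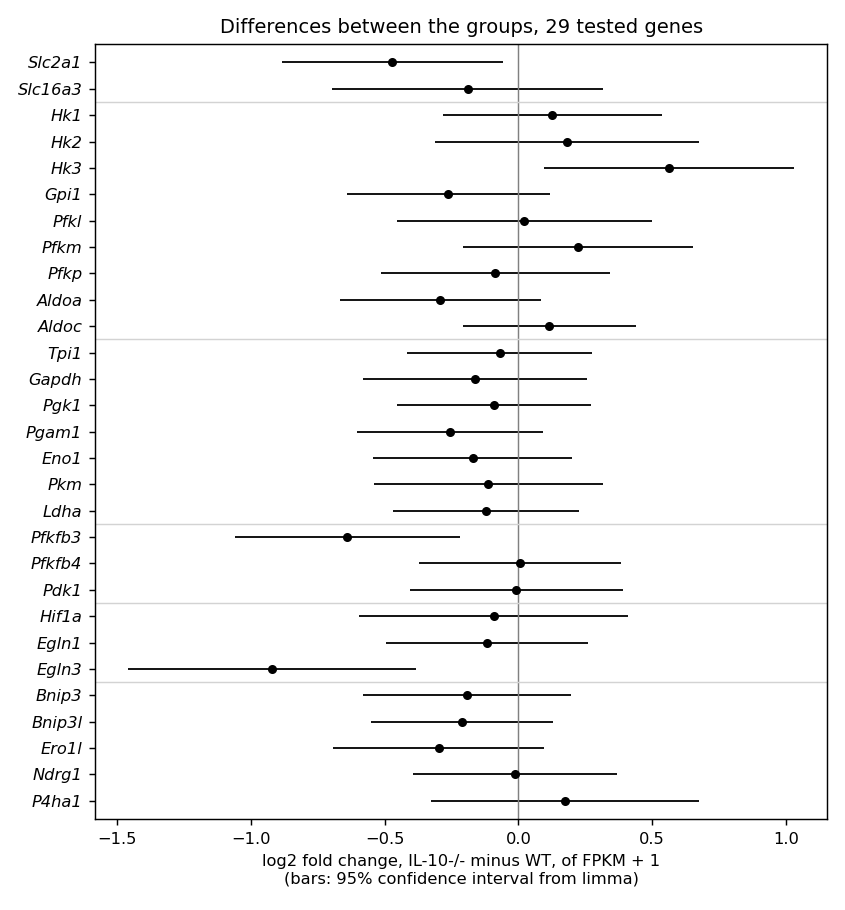
Log2 fold change (IL-10-/- minus WT, on FPKM + 1) of the 29 tested genes with the 95% confidence interval from limma as bars, grouped by role. The points run from −0.92 (Egln3) to 0.56 (Hk3), and the intervals of 4 genes do not include 0, although none of the 29 passed the test after adjustment.

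Glucose enters through GLUT1, the product of Slc2a1, and lactate leaves through MCT4, the product of Slc16a3. Slc2a1 (chromosome 4, 119108711 to 119137983 of GRCm38, forward strand) stood at 132, 95.5 and 96.1 FPKM in WT libraries and at 76.4, 66.1 and 88.6 FPKM in IL-10-/- libraries. Every IL-10-/- library lay below every WT library, and the closest pair was WT replicate 2 and IL-10-/- replicate 3. The log2 fold change was −0.47 (SE 0.18, 95% confidence interval −0.89 to −0.06), and the adjusted p from limma was 0.37. Slc16a3 was at 519, 295 and 344 FPKM in WT libraries and at 340, 296 and 353 FPKM in IL-10-/- libraries. Here WT replicate 1 stood apart from the other 5 libraries, and the groups overlapped (log2 fold change −0.19, SE 0.22, adjusted p = 0.86 from limma). Without WT replicate 1 the value for Slc16a3 was 0.04, that is, on the other side of 0.

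Hexokinases trap glucose in the cell as glucose 6-phosphate, and 3 isozymes were measured. Hk3, the hexokinase enriched in myeloid cells, was at 132, 90.6 and 83.2 FPKM in WT libraries and at 141, 132 and 174 FPKM in IL-10-/- libraries. Its groups touched, since WT replicate 1 and IL-10-/- replicate 2 were equal to 3 digits. The log2 fold change was 0.56 (SE 0.20, 95% confidence interval 0.10 to 1.03, adjusted p = 0.34 from limma), and it was 0.76 without WT replicate 1 (adjusted p = 0.083 from limma). Hk1, the widely expressed isozyme, ranged from 27.1 to 36.1 FPKM in WT libraries and from 28.0 to 39.3 FPKM in IL-10-/- libraries. Hk2, the isozyme that HIF and insulin are known to raise, was at 25.1, 17.5 and 16.5 FPKM and at 28.6, 18.7 and 20.3 FPKM. In both of these genes the libraries numbered 1 were the highest of their group, and the groups overlapped. As a share of the summed hexokinase FPKM, Hk3 made up 66.9 ± 1.42% in WT libraries and 72.7 ± 5.40% in IL-10-/- libraries (SD, n = 3 each), with 67.5, 72.2 and 78.3% in the single IL-10-/- libraries. The groups of these shares overlapped in IL-10-/- replicate 1. The summed classical monocyte markers were also higher in every IL-10-/- library than in every WT library, while the summed macrophage markers other than Lyz2 overlapped, and their part in the difference of Hk3 was not tested.

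At the next steps to the triose stage the leading isozyme was the same in all 6 libraries. Gpi1, the phosphoglucose isomerase, was at 492, 365 and 454 FPKM in WT libraries and at 349, 344 and 394 FPKM in IL-10-/- libraries, with a log2 fold change of −0.26 (SE 0.16, adjusted p = 0.67 from limma). Phosphofructokinase, which commits sugar to glycolysis, was mostly Pfkp, the platelet-type subunit, at 64.6 ± 3.26% of the family in WT libraries and 62.7 ± 4.61% in IL-10-/- libraries (SD, n = 3 each). Pfkl, the liver-type subunit, made up 34.8 ± 3.39% and 36.4 ± 4.40%, and Pfkm, the muscle-type subunit, stood at only 0.948 to 1.27 FPKM and 1.15 to 1.72 FPKM. Pfkl stood at 91.5, 53.5 and 60.9 FPKM in WT libraries and 76.0, 64.1 and 64.2 FPKM in IL-10-/- libraries, with WT replicate 1 again the highest of the 6. Its log2 fold change was 0.02 (SE 0.21), with a 95% confidence interval from −0.45 to 0.50 (limma). Aldolase was Aldoa by 99.2 ± 0.0311% in WT libraries and 98.9 ± 0.107% in IL-10-/- libraries. Aldoa was at 1283, 1032 and 1184 FPKM and at 993, 892 and 963 FPKM, so that all IL-10-/- libraries lay below all WT libraries, with a log2 fold change of −0.29 (SE 0.16, adjusted p = 0.63 from limma). Aldoc, the minor isozyme, ranged from 8.59 to 9.98 FPKM and from 9.67 to 11.4 FPKM.

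The later steps of the pathway, from triose phosphate to lactate, included the most abundant of the 30 transcripts, and all 7 of its genes had log2 fold changes between −0.25 and −0.07. Gapdh, the dehydrogenase that makes the first NADH of the pathway and a common reference gene in qRT–PCR, was at 2676, 2483 and 2711 FPKM in WT libraries and at 2049, 2431 and 2584 FPKM in IL-10-/- libraries. The single lowest library was IL-10-/- replicate 1, and the groups overlapped (log2 fold change −0.16, SE 0.18, 95% confidence interval −0.58 to 0.26, adjusted p = 0.85 from limma). Pkm, pyruvate kinase, was at 2012, 1587 and 1561 FPKM and at 1440, 1560 and 1753 FPKM, and Eno1, enolase, at 1417, 1157 and 1287 FPKM and at 1125, 1178 and 1117 FPKM. Both were highest in WT replicate 1. Pgam1, phosphoglycerate mutase, was at 515, 404 and 433 FPKM in WT libraries and at 382, 361 and 384 FPKM in IL-10-/- libraries, with no overlap and a log2 fold change of −0.25 (SE 0.15, adjusted p = 0.65 from limma). Ldha, the subunit that favors lactate, made up 99.6 ± 0.0633% of lactate dehydrogenase FPKM in WT libraries and 99.5 ± 0.142% in IL-10-/- libraries (SD, n = 3 each). Its level, at 980, 1055 and 1033 FPKM and at 997, 943 and 885 FPKM, varied least of the 30 genes, by 1.19 times from the lowest library to the highest, and its log2 fold change was −0.12 (SE 0.15, 95% confidence interval −0.47 to 0.23 from limma). Pgk1, phosphoglycerate kinase, ranged from 576 to 738 FPKM and from 601 to 640 FPKM, and Tpi1, triose phosphate isomerase, from 459 to 570 FPKM and from 466 to 495 FPKM. Summed over the 16 enzymes from hexokinase to lactate dehydrogenase, the level was 11126, 9542 and 10029 FPKM in WT libraries and 8837, 9138 and 9651 FPKM in IL-10-/- libraries. This sum was 1.21, 0.895 and 0.891% of all FPKM in WT libraries and 0.998, 0.924 and 0.914% in IL-10-/- libraries, and WT replicate 1 was the highest.

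Several of these enzymes share sequence with pseudogenes or retrogenes that carry FPKM of their own. Pgam1-ps2 held 51.4% of the FPKM of Pgam1 and itself in WT libraries and 52.1% in IL-10-/- libraries, Pgk1-rs7 held 45.1% in both groups, and Eno1b held 24.3% in both groups. Bnip3l-ps took 13.7% in both groups and Gapdh-ps15 took 2.82% and 2.68%. The deposited levels of these parent genes are therefore uncertain, since the counting could split reads between the copies. The copies took nearly the same share in both groups, and with each copy summed into its parent the median log2 fold change of the 29 genes stayed at −0.11 with 0 genes called. The groups of Pgam1-ps2 overlapped, at 597, 392 and 458 FPKM in WT libraries and at 417, 398 and 409 FPKM in IL-10-/- libraries. With this copy added to Pgam1, IL-10-/- replicate 1 lay above WT replicate 2, so that the lack of overlap in Pgam1 was lost.

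Flux into the pathway is set in part by PFKFB enzymes, which make and break fructose 2,6-bisphosphate, the activator of phosphofructokinase. Pfkfb3 (chromosome 2, 11471433 to 11554077, reverse strand), the form with high kinase activity, was at 55.4, 43.5 and 41.5 FPKM in WT libraries and at 31.1, 23.7 and 34.4 FPKM in IL-10-/- libraries. All IL-10-/- libraries lay below all WT libraries. The log2 fold change was −0.64 (SE 0.18, 95% confidence interval −1.06 to −0.22, adjusted p = 0.20 from limma). Since the groups did not overlap, an exact two-sided permutation test over the libraries could only give p = 0.1, its smallest possible value. Pfkfb4, a second form of the enzyme, was at 24.1, 23.1 and 18.6 FPKM and at 23.1, 18.5 and 24.6 FPKM, with a log2 fold change of 0.01 (SE 0.16). As a share of the FPKM of both forms, Pfkfb3 made up 69.7, 65.3 and 69.1% in WT libraries and 57.4, 56.2 and 58.3% in IL-10-/- libraries, a difference of −10.7 percentage points. This share does not depend on a linear scaling of the libraries, the groups did not overlap, and the difference lay between −12.1 and −9.87 points when each library was left out in turn. Pdk1, the kinase that keeps pyruvate out of the mitochondria, was at 33.1, 27.1 and 22.3 FPKM and at 29.3, 28.1 and 23.9 FPKM, with a log2 fold change of −0.01 (SE 0.17).

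Hif1a, the oxygen-regulated subunit of HIF-1, was at 227, 153 and 124 FPKM in WT libraries and at 155, 143 and 160 FPKM in IL-10-/- libraries. The IL-10-/- libraries all lay within the WT range, and the log2 fold change was −0.09 (SE 0.22, 95% confidence interval −0.60 to 0.41, adjusted p = 0.94 from limma). HIF-1α is regulated mainly as a protein, which these data do not measure. Egln3 (chromosome 12, 54178981 to 54203860, reverse strand), the inducible prolyl hydroxylase, had the largest difference of the 29 genes. It was at 23.3, 13.9 and 14.9 FPKM in WT libraries and at 9.73, 6.42 and 9.64 FPKM in IL-10-/- libraries, or 17.4 ± 5.19 and 8.60 ± 1.89 FPKM (SD, n = 3 each). The groups did not overlap, and the log2 fold change was −0.92 (SE 0.23, 95% confidence interval −1.46 to −0.38, adjusted p = 0.14 from limma). With limma's array weights, which give noisier libraries less weight, Egln3 passed the test with a log2 fold change of −0.92 (adjusted p = 0.042), and its log2 fold change was −0.70 when WT replicate 1 was left out (adjusted p = 0.18 from limma). Egln1, the main prolyl hydroxylase of HIF-1α in most cells, was at 29.3, 20.5 and 21.9 FPKM and at 22.9, 20.1 and 22.3 FPKM, so that the other 5 libraries lay below WT replicate 1. Egln3 made up 24.4, 19.9 and 20.1% of the summed FPKM of Egln1, Egln2 and Egln3 in WT libraries and 16.4, 10.6 and 12.4% in IL-10-/- libraries, a difference of −8.35 percentage points with no overlap.

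**Figure D3:**
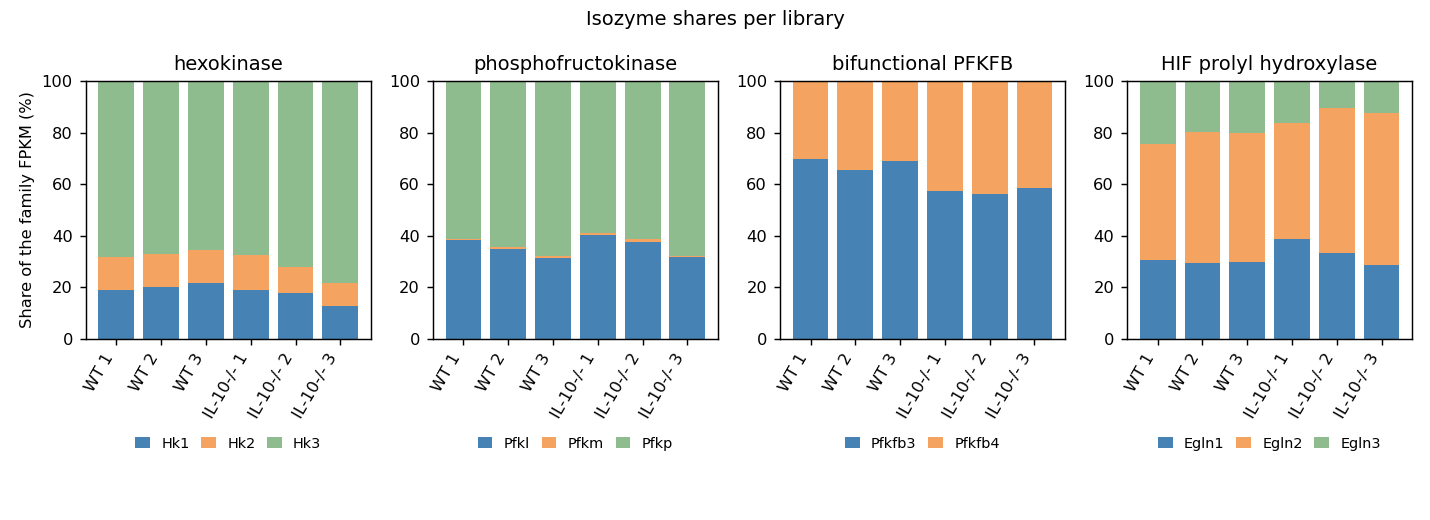
Share of the family FPKM (%) held by each isozyme in the 6 libraries, for hexokinases, phosphofructokinases, PFKFB enzymes and HIF prolyl hydroxylases. Pfkfb3 held 65.3 to 69.7% of the PFKFB pair in WT libraries and 56.2 to 58.3% in IL-10-/- libraries, and Egln3 held 19.9 to 24.4% and 10.6 to 16.4% of the prolyl hydroxylases, while the hexokinase and phosphofructokinase shares overlapped.

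The remaining 6 genes are HIF targets outside glycolysis, and 5 of them were tested. Bnip3 and Bnip3l, which encode receptors for the removal of mitochondria, ranged from 132 to 183 FPKM and from 69.1 to 85.0 FPKM in WT libraries and from 116 to 140 FPKM and from 59.3 to 75.1 FPKM in IL-10-/- libraries, with log2 fold changes of −0.19 (SE 0.17) and −0.21 (SE 0.15). Ero1l, an oxidase of the endoplasmic reticulum, was at 39.5, 31.3 and 27.8 FPKM and at 29.9, 23.1 and 26.3 FPKM, a log2 fold change of −0.30 (SE 0.17, adjusted p = 0.64 from limma). Its groups overlapped through IL-10-/- replicate 1 and WT replicate 3. Ndrg1, a stress-induced gene, and P4ha1, a subunit of collagen prolyl hydroxylase, had log2 fold changes of −0.01 (SE 0.17) and 0.17 (SE 0.22). Adm, the gene of the vasodilator peptide adrenomedullin, was at 0.133, 0.464 and 1.12 FPKM in WT libraries and at 0.154, 0.146 and 0.0643 FPKM in IL-10-/- libraries, levels at which a few fragments decide the value.

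The levels of these genes moved together within the WT group, a pattern noticed after the values were seen. Of the 29 tested genes, 25 were highest among the WT libraries in replicate 1, the exceptions being Pfkm, Gapdh, Ldha and Bnip3l, while 41.0% of all tested genes were highest there. In 19 of the 29 genes WT replicate 1 was the highest of all 6 libraries, against 23.0% of all tested genes. The ratio of WT replicate 1 to the mean of the other WT libraries had a median of 1.31 over the 29 genes, from 0.752 in Pfkm to 1.64 in Hif1a, and of 1.00 over all tested genes. With each gene's values centred on the mean of its 6 libraries, the median over the 29 genes was 0.29 on the log2 scale in WT replicate 1, −0.04 and −0.05 in the other WT libraries, and −0.03, −0.10 and −0.03 in IL-10-/- libraries. The count highest among the WT libraries was 27 of 29 after rescaling to an equal sum (59.6% of all tested genes) and 27 of 29 after quantile normalization (43.5%). Without WT replicate 1 the median log2 fold change of the 29 genes was 0.02 in place of −0.11, with groups that did not overlap for 6 higher genes (Hk1, Hk2, Hk3, Pfkl, Ndrg1 and P4ha1) and 7 lower genes, beside 17.9% and 16.3% of all tested genes, and again 0 were called. WT replicate 1 also had the lowest summed macrophage markers of the 6 libraries (7806 FPKM), but the single markers differed in direction. Among the WT libraries Adgre1, C1qa, C1qb and C1qc were lowest in replicate 1 and Lyz2 lay between. Csf1r, Cd68, Fcgr1, Mertk and Mrc1 were highest there. The 11 resident cavity macrophage markers summed to 2672, 4291 and 3282 FPKM in WT libraries and to 6103, 6132 and 2240 FPKM in IL-10-/- libraries. All of them except Fn1 were lowest among the WT libraries in replicate 1. The classical monocyte sum was highest there among the WT libraries (8254 FPKM, against 7296 and 6827 FPKM), although Plac8 and Gpx1 were lowest. The summed proliferation markers were also lowest in WT replicate 1 (165 FPKM, against 211 to 349 FPKM). The part of these markers in the pattern was not tested.

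**Figure D4:**
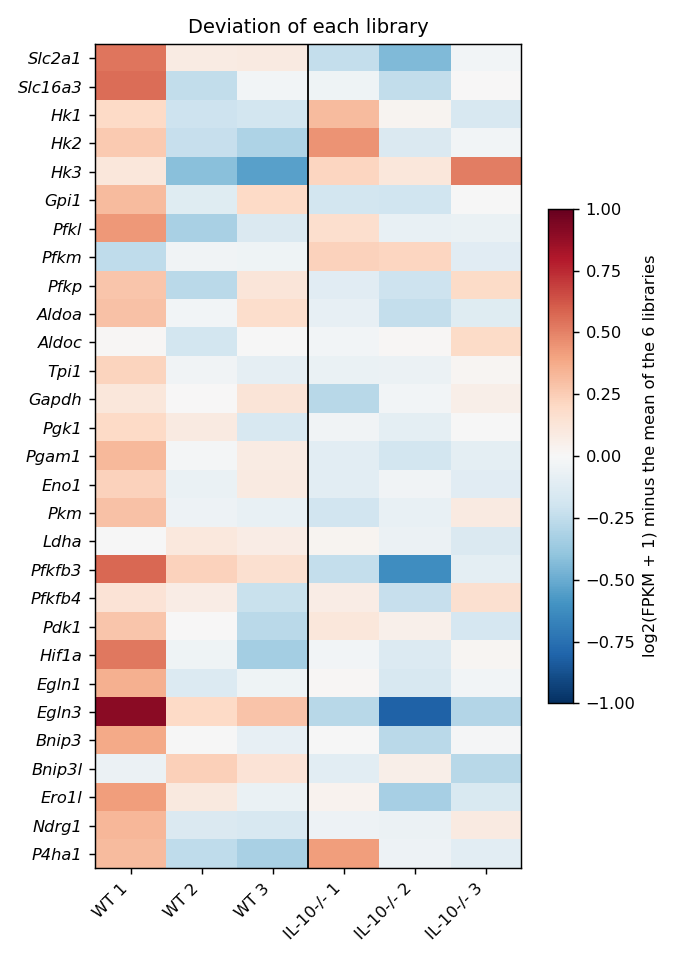
Deviation of each library from the gene's mean over the 6 libraries, on log2(FPKM + 1), for the 29 tested genes (red above, blue below the mean, with the line between WT and IL-10-/- libraries). The column of WT replicate 1 is red in most rows, with a median of 0.29, while the other 5 columns have medians from −0.10 to −0.03.

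Genes of neighboring pathways, chosen by function but with earlier results of these data known, were read from the same fit. Of the further glycolysis genes 0 of 14 tested rose and 0 fell in limma (2 higher and 3 lower at an unadjusted p under 0.05), and the median difference on the log2 scale was −0.04. The lowest p-values there were those of Slc2a3, which encodes the high-affinity glucose transporter GLUT3, and of Bpgm, which encodes bisphosphoglycerate mutase, an enzyme most abundant in red cells. Slc2a3 was at 6.64, 7.96 and 8.78 FPKM in WT libraries and at 4.86, 2.56 and 2.56 FPKM in IL-10-/- libraries (log2 fold change −1.06, SE 0.23, adjusted p = 0.092 from limma), and Bpgm was at 7.86 to 11.5 FPKM and 3.76 to 6.40 FPKM (−0.80, SE 0.21, adjusted p = 0.16 from limma). The groups of both genes did not overlap, and both differed in the direction of the erythroid and neutrophil markers, whose part was not tested. None of the 13 tested genes for the entry of pyruvate into mitochondria, of the 17 of the tricarboxylic acid cycle, of the 8 of the pentose phosphate pathway or of the 7 of glycogen and gluconeogenesis rose or fell in limma (0 at an unadjusted p under 0.05 in each list), and the medians of these lists were 0.08, −0.02, −0.03 and 0.06. Their lowest adjusted p-values from limma were 0.73 for Pdha1, 0.53 for Mdh2, 0.49 for Rpe and 0.76 for Ugp2, and the second lowest p-values of the lists were those of Pdp1, Idh3g, Rpia and Pck2. Of 12 tested components of the HIF pathway 0 rose and 0 fell in limma (1 higher and 1 lower at an unadjusted p under 0.05, median −0.11), with Crebbp, a coactivator, at −0.64 (SE 0.23, adjusted p = 0.34 from limma) and Siah2, a ubiquitin ligase for prolyl hydroxylases, at 0.32 (SE 0.13, adjusted p = 0.44 from limma). Of 16 tested genes of Myc and mTORC1 control 0 rose and 0 fell in limma (0 higher and 2 lower at an unadjusted p under 0.05, median −0.09), and the lowest p-values were those of Txnip and Arrdc4, arrestin-like genes induced by glucose (−0.54 and −0.77, adjusted p = 0.29 and 0.31 from limma).

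Further HIF targets were the only one of these lists with genes that passed the test. Since the lists were chosen with earlier results of these data known, the counts are a description and not a test of the list. Of 24 tested genes of 31, 0 rose and 4 fell, among them Ddit4, Ppp1r3b and Cxcr4, beside 0.482% of all tested genes that fell, and the median log2 fold change was −0.27, with 18 genes below 0. At an unadjusted p under 0.05 from limma, 0 were higher and 7 lower, beside 5.16% and 5.61% of all tested genes. Ddit4, which encodes REDD1, an inhibitor of mTORC1 that several kinds of stress induce, was at 114, 115 and 124 FPKM in WT libraries and at 24.2, 24.0 and 41.9 FPKM in IL-10-/- libraries. The WT libraries lay close together and above all of the others (log2 fold change −1.98, SE 0.22, adjusted p = 0.0065 from limma). Ppp1r3b, a subunit that directs protein phosphatase 1 to glycogen, was at 11.7, 10.9 and 9.68 FPKM and at 4.70, 2.83 and 3.79 FPKM, a log2 fold change of −1.32 (SE 0.18, adjusted p = 0.020 from limma). Cxcr4, a chemokine receptor also abundant in neutrophils and lymphocytes, was at 67.0, 110 and 72.9 FPKM and at 34.9, 22.0 and 34.2 FPKM, a log2 fold change of −1.42 (SE 0.24, adjusted p = 0.040 from limma). In these 3 genes the groups did not overlap. Unlike most of the 30 genes, none of these except Ppp1r3b was highest among the WT libraries in replicate 1. The calls held under 16 of 17 alternatives for Ddit4, 12 for Ppp1r3b and 9 for Cxcr4, and of the fits with 1 library left out they held in 6, 3 and 0 of 6. The highest adjusted p for each came without a filter on low values (0.096, 0.14 and 0.22 from limma). The summed neutrophil, platelet and erythroid markers given above were lower in every IL-10-/- library than in every WT library, and the genes of dissociation stress in IL-10-/- replicates 2 and 3. The 10 B cell markers also summed to less, at 112 to 128 FPKM in WT and 44.7 to 94.6 FPKM in IL-10-/- libraries, with 0 of 9 tested called in limma and 7 lower at an unadjusted p under 0.05. The part of these markers in the 3 differences was not tested.

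**Figure D5:**
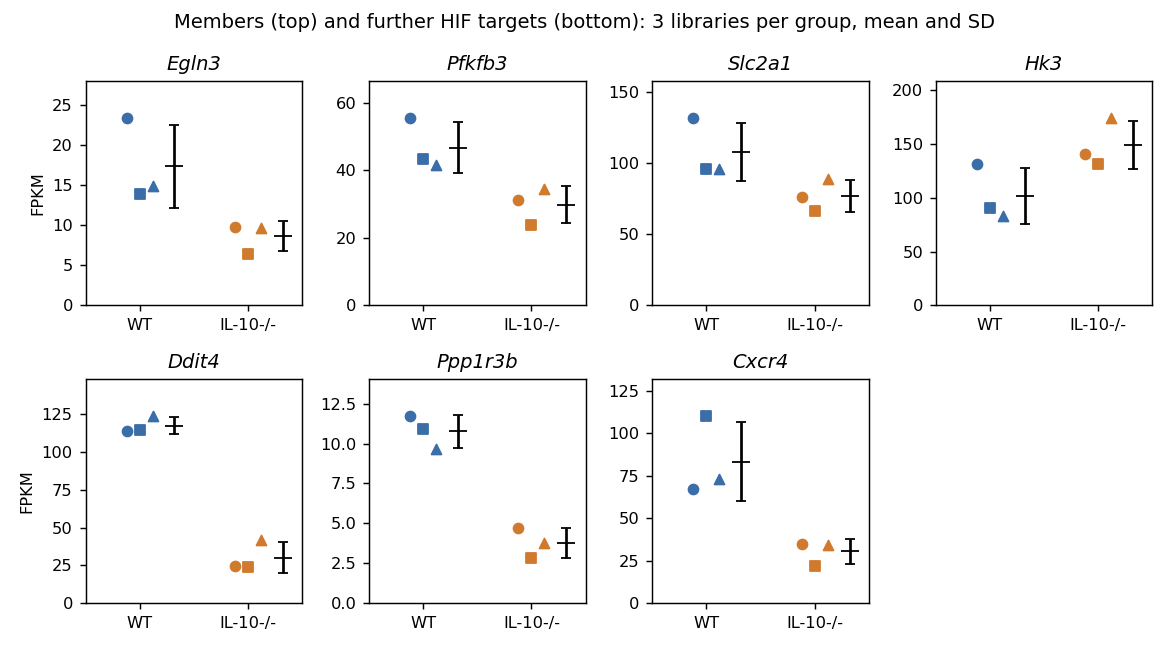
FPKM of Egln3, Pfkfb3, Slc2a1 and Hk3 (top) and of the further HIF targets Ddit4, Ppp1r3b and Cxcr4 (bottom) in each library, with the mean and SD of the 3 libraries per group. Ddit4 stood at 114 to 124 FPKM in WT libraries and at 24.0 to 41.9 FPKM in IL-10-/- libraries, while the top genes differed by less relative to their spread.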

How the data were processed

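RNA of macrophages from MPEs of 3 WT and 3 IL-10-/- libraries was measured with poly(A) selection, a NEBNext Ultra kit and paired-end sequencing. The authors deposited 1 table of FPKM per gene and library on GRCm38. The aligner, the counting tool and whether strand was used: not given in the sources used here, so overlapping or antisense genes cannot be told apart. The table also holds the authors' own log2 fold change, p-value, q-value and call, which were not used. From the deposited FPKM, log2(FPKM + 1) was tested with limma 3.58.1 (R 4.3.3) with an intensity trend, two-sided, over the 11838 genes that reached 1 FPKM in 3 or more of 6 libraries, with Benjamini-Hochberg adjustment. The log2 scale with this pseudocount understates the change of low genes. Absolute depth is unknown, and precision comes from the spread between libraries. Single values were compared with an exact permutation test, with a smallest two-sided p of 0.1. The code was tested on simulated data.

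Samples were grouped by their labels. The 30 genes and all lists were chosen with earlier results of these data known. All 30 genes are named, and from each neighboring list the genes at an adjusted p under 0.05 and the 2 with the smallest p. Beyond this rule, sequence copies of the 30 genes, Il10, Lyz2, Mrc1 and some reference genes are named, and 1 gene that the rule takes is not reported here. As alternatives, the fit was repeated with a pseudocount of 0.1, no filter, a filter at 5 FPKM, quantile normalization, an equal FPKM sum, median-ratio scaling, no trend, array weights, a block for the replicate number, protein-coding genes only and each library left out in turn. Summing copies into their parent gene was added after the data were seen. Promoter sequences are those of RefSeq for GRCm38.p6, and each window is the one nearest to the 5′ end of the deposited gene.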

Additional observations from a re-analysis of the deposited data

How the results depend on the processing

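No member of the 30 genes was called higher under any of the 17 alternatives, and 1 was called lower under 1 of them (array weights, Egln3, adjusted p = 0.042 from limma). Over the alternatives the adjusted p from limma ranged from 0.042 to 0.44 for Egln3, from 0.055 to 0.59 for Pfkfb3, from 0.069 to 0.69 for Hk3 and from 0.12 to 0.88 for Slc2a1. The genes called over the whole table numbered 72 higher and 57 lower, and 22 and 10 without a filter, 248 and 234 with array weights, and 26 to 78 and 14 to 62 with 1 library left out. The fewest came without WT replicate 3 (26 and 14), and the counts were 36 and 15 without WT replicate 2, 30 and 20 without IL-10-/- replicate 1 and 33 and 24 without IL-10-/- replicate 2. With the replicate number as a block, the calls were 36 higher and 25 lower, with 0 of the 30 genes. The deviations of same-numbered libraries correlated across genes at 0.086, 0.20 and 0.090, and each library correlated best with its own number, a hint of pairing from the data. The labels state no pairing, so the main fit did not pair the libraries. With 1 library left out, 0 to 1 of the genes passed a fold of 2 at an unadjusted p under 0.05 (2.14 to 2.99% of all tested genes), and the groups did not overlap for 1 to 6 higher and 7 to 8 lower genes (10.2 to 17.9% and 10.2 to 16.7% of all). After rescaling to an equal sum these were 0 higher and 2 lower (Pfkfb3 and Egln3, beside 7.86% and 4.99% of all), and with quantile normalization 0 higher and 3 lower (beside 8.23% and 7.14%). The median log2 fold change ranged from −0.17 (without WT replicate 3) to 0.02 (without WT replicate 1). Some small log2 fold changes turned: with quantile normalization Pgk1 was at 0.0060 and Ldha at 0.0067, with an equal sum Tpi1 at 0.014, Pdk1 at 0.074 and Ndrg1 at 0.067, and with array weights Pfkfb4 at −0.048, Pdk1 at 0.12, Hif1a at 0.026 and Ndrg1 at 0.061. With 1 library left out, values lay between −0.36 and 0.044 for Slc16a3, −0.0013 and 0.26 for Hk1, −0.14 and 0.25 for Pfkl, −0.24 and 0.032 for Pfkp, −0.13 and 0.024 for Tpi1, −0.19 and 0.0047 for Pkm, −0.10 and 0.12 for Pfkfb4, −0.14 and 0.13 for Pdk1, −0.29 and 0.15 for Hif1a, −0.21 and 0.034 for Egln1, and −0.10 and 0.15 for Ndrg1. The cause of these shifts was not tested. Low genes such as Adm and Pfkm are limited most by depth.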

Other observations

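Gapdh and Pgk1 belong to the 30 genes and also serve as reference genes, so their spread was set beside that of other common reference genes. Over the 6 libraries, the highest value was 1.32 times the lowest in Gapdh and 1.28 times in Pgk1. The spread was 1.24 times in Gusb, 1.29 times in Ywhaz and in Tbp, 1.31 times in Tfrc, 1.60 times in Actb, 1.75 times in Ppia and 2.06 times in B2m. Of 13 reference genes tested 0 rose and 0 fell at an adjusted p under 0.05 from limma (0 at an unadjusted p under 0.05), and their log2 fold changes ran from −0.28 (Actb, adjusted p = 0.74) to 0.42 (B2m, adjusted p = 0.67). B2m was at 3901 to 6440 FPKM in WT libraries and at 6621 to 8046 FPKM in IL-10-/- libraries, with no overlap.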
